A study of Mus musculus with 24 samples.

Results

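The neural RNA-binding and splicing regulators described here are 10 genes, Ptbp1, Ptbp2, Nova1, Nova2, Elavl1, Elavl2, Elavl3, Elavl4, Mbnl1 and Mbnl2. They were taken by symbol from the GENCODE M1 annotation of mm9, where all 10 were found among 22367 protein-coding genes outside the mitochondrial chromosome. The rule is a list of names without a threshold on these data, but the names were set down with earlier results of the data known. RNA depleted of ribosomal RNA had been sequenced as short tags without strand information, and each tag with 1 place in the genome was assigned to a gene by its midpoint.

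The regulators were compared between CCE and FH. CCE is a feeder-independent embryonic stem cell line of 129/SvEv origin, which had been differentiated without LIF in 0.266 µM retinoic acid for 5 days. FH is the fetal head of FVB/N mice at 14.5 dpc and holds many tissues besides brain. For each tissue there were RiboMinus libraries, made from cDNA that had been prepared 4 times for CCE and 3 times for FH and was sequenced at 2 locations, and 1 Ribo-Zero library from another RNA sample. The CCE cDNAs are technical replicates, FH2 went through 2 rounds of depletion, and separate animals are not described for FH, so that the p-values measure the spread between preparations. Shearing and hydrolysis were applied to the same depleted RNA, so that the preparations stand for 2 depletions per tissue and are not all independent. Whether the 2 depletions came from separate RNA samples is not stated. Hydrolysed preparations alone, with 1 preparation per depletion as labelled, are therefore given as an alternative. They are not shown to be biological replicates. The numbers of the hydrolysed preparations may be crossed between the locations (r = -0.45 in CCE and -0.408 in FH between the log2 ratios of preparation 1 to 2), and with crossed numbers every gene-level call of the regulators was the same. The strains differ between the tissues, and strain and tissue cannot be told apart. Tag counts were 920424 to 2473448 per RiboMinus library, 26345467 in the CCE and 46226046 in the FH Ribo-Zero library outside the mitochondrial chromosome. Between 65% and 72.4% of RiboMinus tags lay in protein-coding exons in CCE and between 44.4% and 61.3% in FH.

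All 10 genes encode proteins that bind RNA through short sequence elements and change how a transcript is spliced, kept or translated. Polypyrimidine tract-binding proteins bind pyrimidine-rich stretches and often repress exons, with Ptbp1 widely expressed and its paralogue Ptbp2 enriched in neurons. Nova proteins are neuronal factors that bind YCAY clusters through KH domains. Elavl (Hu) proteins bind U-rich and AU-rich elements. Elavl1 is widely expressed, while Elavl2, Elavl3 and Elavl4 mark neurons and Elavl2 is also found in gonads. Muscleblind-like proteins bind YGCY motifs and are best known from myotonic dystrophy, in which expanded repeats sequester them.

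Several of these genes carry short exons that could reveal tissue-specific use, and their sequences show why paralogues can be compared. The 3 neuronal Elavl genes share an exon of 39 nt on the minus strand of mm9, where Elavl1 has none of that length. It lies at chr4:90920832-90920870 in Elavl2, chr9:21829118-21829156 in Elavl3 and chr4:109882345-109882383 in Elavl4. Capitals mark the 32 of 39 bases that all 3 genes share.
Elavl2 exon 12: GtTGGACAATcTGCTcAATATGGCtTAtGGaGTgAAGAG
Elavl3 exon 6: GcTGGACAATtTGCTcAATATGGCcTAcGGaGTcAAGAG
Elavl4 exon 12: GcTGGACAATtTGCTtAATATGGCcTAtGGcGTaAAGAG

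Ptbp1 and Ptbp2 share an exon of 34 nt, whose skipping shifts the reading frame and is known to lower the level of both proteins. It lies at chr10:79324759-79324792 on the plus strand and at chr3:119427530-119427563 on the minus strand. Capitals mark the 26 of 34 bases that both genes share.
Ptbp1 exon 11: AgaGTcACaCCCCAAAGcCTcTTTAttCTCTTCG
Ptbp2 exon 10: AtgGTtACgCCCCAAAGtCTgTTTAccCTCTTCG

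Short coding exons of the other families, of 72, 36 and 54 nt and shown because they were counted in the same way, are at chr12:47814485-47814556 on the minus strand in Nova1 and on the plus strand at chr3:60425345-60425380 in Mbnl1 and chr14:120794934-120794987 in Mbnl2. No base is singled out in them.
Nova1 exon 4: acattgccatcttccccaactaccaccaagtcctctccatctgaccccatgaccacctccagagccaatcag
Mbnl1 exon 8: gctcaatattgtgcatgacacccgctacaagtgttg
Mbnl2 exon 6: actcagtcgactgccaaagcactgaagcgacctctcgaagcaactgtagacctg

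The identity of the tissues was examined with marker genes. In FH, 6 of 7 tested neuronal markers rose, and their summed RPKM was 40.8 to 49.1 in CCE and 378 to 647 in FH preparations. Of the neural progenitor markers 5 of 6 tested rose and Vim fell, with sums of 555 to 1372 in CCE and 308 to 592 in FH. Vim made up most of these sums, at a mean of 784 RPKM in CCE and 294 in FH, and in the Ribo-Zero libraries the sum had the other order, 275 in CCE and 361 in FH. Sox2, among those that rose, was lower in FH in Ribo-Zero, with 46.5 RPKM in CCE and 22.5 in FH. Nes, Hes5, Fabp7 and Sox9 were higher in FH there as well. All 6 skeletal muscle, 4 of 4 tested erythroid and 4 of 4 cartilage markers rose as well, with sums of 129 to 189, 839 to 1363 and 131 to 182 in FH against 21.9 to 32.9, 0.923 to 3.18 and 6.72 to 15.1 in CCE. Of the markers of astrocytes and oligodendrocytes only Olig2 rose of 2 tested, and the sum was 5.61 to 6.86 in CCE and 12.5 to 16 in FH. Primitive endoderm markers fell in FH for 8 of 9, from 284 to 373 in CCE to 90.3 to 99.9, and pluripotency markers for 5 of 6, from 46.5 to 55 in CCE to 12 to 26.1, while Klf4 rose. In Ribo-Zero Klf4 did not rise, with 3.08 RPKM in CCE and 2.92 in FH. The fall of Vim was not called when libraries were scaled to the median ratio of genes (adjusted p = 0.0516), nor was that of the endoderm marker Dab2 on this scale (0.0579) or on that of protein-coding exon tags (0.124), which left 7 of 9 endoderm markers. Pou5f1, Zfp42, Gata4 and Dppa5a had no tag in any FH preparation, and Hes5, Fabp7, Myog, Myod1, Myh3, Hba-a1, Hbb-b1 and Olig2 had none in any CCE preparation. The part of these cell types in the differences below was not tested, and in such bulk samples fewer cells of a type and less RNA per cell cannot be told apart.

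Levels are given as RPKM, tags per kilobase of merged exon scaled to the unique tags of the library. Differences between FH and CCE were tested with limma on log2(RPKM + 1), with p-values adjusted by the Benjamini-Hochberg method over the 10306 genes whose mean RPKM exceeded 3 in either tissue. All 10 regulators passed this filter, but Nova1, Nova2, Elavl2, Elavl3 and Elavl4 did so only through FH, where they are high, so that the count of higher genes is partly set by the filter. Of the 10, 6 were higher in FH, Ptbp2, Nova1, Nova2, Elavl2, Elavl3 and Elavl4, and 3 were lower, Ptbp1, Elavl1 and Mbnl2. Mbnl1 did not pass the threshold of 0.05. Of all genes tested, 19.9% were higher and 34.8% lower in FH. The median log2 fold change was 1.81 for the regulators, among them the 5 that passed through FH, and -0.34 for all genes (-0.05 with no filter on low genes). When scaled to tags in protein-coding exons, the median of all genes was 0.06, and higher genes made up 59.6% of all called genes in place of 36.5%. On that scale, too, 6 regulators were higher and 3 lower.

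**Figure D1:**
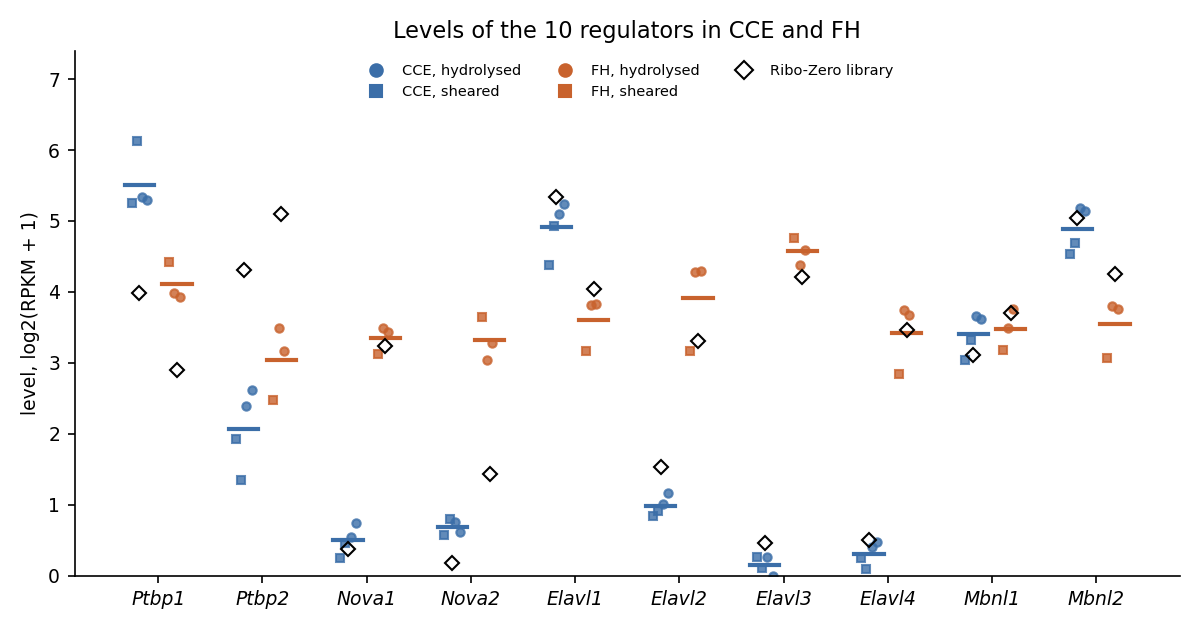
Level of each regulator as log2(RPKM + 1) in the RiboMinus preparations of CCE (blue) and FH (orange), with circles for hydrolysed and squares for sheared cDNA, horizontal lines at the means and open diamonds for the Ribo-Zero libraries. Nova1, Nova2, Elavl2, Elavl3 and Elavl4 lie higher in all 3 FH than in all 4 CCE preparations, and Ptbp1, Elavl1 and Mbnl2 lie lower.

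Ptbp1 (ENSMUSG00000006498.9, chr10:79317172-79327516, plus strand) encodes the widespread polypyrimidine tract-binding protein. Its RPKM was 37.0 and 69.0 in the sheared and 39.5 and 38.2 in the hydrolysed CCE preparations. FH gave 20.4 for sheared and 14.9 and 14.3 for hydrolysed cDNA. Every FH preparation lay below every CCE preparation, which was the case for 35.9% of all genes tested. Mean levels were 45.9 ± 15.4 (SD, n = 4) in CCE and 16.5 ± 3.37 (SD, n = 3) in FH, 2.78-fold lower. The log2 fold change was -1.39 (SE 0.256, limma adjusted p = 0.00177). In the Ribo-Zero libraries Ptbp1 stood at 14.8 RPKM in CCE (95% Poisson interval 14.1 to 15.5) and 6.47 in FH (6.14 to 6.82), again lower in FH but with less than the RiboMinus level in both tissues. These intervals, like all those given for Ribo-Zero, cover counting error only. Of the Ptbp1 exons, 773 nt are shared with other genes, among them BC005764 on the opposite strand, and tags there cannot be told apart. Of the 36-mers within its exons 74.8% are unique in the genome as exact words, against at least 98.9% for each other regulator, and the RPKM of Ptbp1 was not corrected for this in either tissue.

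Ptbp2 (ENSMUSG00000028134.7, chr3:119421660-119486306, minus strand), the neuronal paralogue, went the other way. CCE preparations gave 2.79, 1.54, 4.24 and 5.12 RPKM and FH preparations 4.56, 10.2 and 7.98, where here and below the values of sheared cDNA (2 in CCE, 1 in FH) come first. The groups overlapped, since sheared FH cDNA gave less than 1 hydrolysed CCE preparation. The means were 3.42 ± 1.58 (SD, n = 4) and 7.60 ± 2.86 (SD, n = 3), 2.22-fold higher in FH, with a log2 fold change of 0.98 (SE 0.347, limma adjusted p = 0.0395). This call was lost without CCE1 sheared (adjusted p = 0.092), CCE2 sheared (0.0721), FH1 hydrolysed (0.138) or FH2 hydrolysed (0.109). It was also lost at Vienna-IMP (0.0871) or Nijmegen (0.0561) alone, with coding parts only (0.0786), with repeated positions counted once (0.0504) and with no filter on low genes (0.0525), while hydrolysed preparations alone gave 0.00191. The direction was the same under all 24 alternatives. In Ribo-Zero libraries Ptbp2 was far more abundant, with 18.9 RPKM in CCE (18 to 19.8) and 33.1 in FH (32.2 to 34), the highest value of the 10 regulators in FH.

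The ratio of Ptbp2 to Ptbp1 brings both changes together. With Ptbp1 not corrected for sequence that is not unique, this ratio lay between 0.0223 and 0.134 in CCE and between 0.224 and 0.690 in FH preparations, a difference of 2.65 on the log2 scale. The groups did not overlap, and the exact two-sided permutation test gave p = 0.0571, the smallest value that 4 against 3 preparations allow (adjusted over 3 ratios 0.0571). This test, here and for the other ratios below, treats all preparations as independent, although sheared and hydrolysed cDNA share depleted RNA. The genes of each ratio had also been tested in the same preparations, so that the p-value adds no separate support. In the Ribo-Zero libraries the ratio was 1.27 in CCE and 5.11 in FH. By these uncorrected values Ptbp1 was the more abundant of the pair in RiboMinus and Ptbp2 in Ribo-Zero libraries, while the order of the tissues was the same in both kits. Of the 36-mers, 74.8% are unique for Ptbp1 and 100% for Ptbp2. Ribo-Zero tags have 51 nt, and the unique share of words of that length was not counted. Whether the order of the pair in Ribo-Zero CCE, at 1.27, would turn with a correction is therefore not known.

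The Nova genes stayed below 1 RPKM in every CCE preparation. Nova1 (ENSMUSG00000021047.6, chr12:47795504-47919762, minus strand) had 0.191, 0.370, 0.465 and 0.679 RPKM in CCE and 7.71, 10.2 and 9.82 in FH. Mean levels were 0.426 ± 0.203 (SD, n = 4) and 9.24 ± 1.34 (SD, n = 3), a 21.7-fold difference, with a log2 fold change of 2.85 on the RPKM + 1 scale (SE 0.179, limma adjusted p = 3.09e-06). No CCE preparation came near the lowest FH value. The Ribo-Zero libraries gave 0.293 RPKM in CCE (0.220 to 0.382) and 8.41 in FH (8.09 to 8.73).

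Nova2 (ENSMUSG00000030411.8, chr7:19510698-19551031, plus strand) had 0.483, 0.738, 0.695 and 0.527 RPKM in CCE and 11.5, 7.20 and 8.75 in FH. All FH values were again above all CCE values, with means of 0.611 ± 0.125 (SD, n = 4) and 9.13 ± 2.15 (SD, n = 3). The difference was 15-fold, with a log2 fold change of 2.64 (SE 0.183, limma adjusted p = 5.22e-06). Ribo-Zero levels of Nova2 were lower, 0.131 RPKM in CCE (0.0887 to 0.185) and 1.71 in FH (1.59 to 1.84). Of the 9014 nt of Nova2 exons, 2652 nt overlap Gm17370, a lincRNA gene on the other strand. With coding parts only, Nova2 was still called higher. Exons of lincRNA genes were not cut from these parts, however, so that this does not set tags of Gm17370 apart.

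Elavl1 (ENSMUSG00000040028.9, chr8:4284782-4325100, minus strand), the widespread member that stabilises many AU-rich mRNAs, was lower in FH. It had 19.8, 29.4, 33.2 and 36.7 RPKM in CCE and 7.99, 13.1 and 13.2 in FH. The groups did not overlap. Mean levels were 29.8 ± 7.31 (SD, n = 4) and 11.4 ± 2.98 (SD, n = 3), 2.61-fold lower in FH, with a log2 fold change of -1.30 (SE 0.261, limma adjusted p = 0.00277). The Ribo-Zero libraries gave 39.3 RPKM in CCE (38.3 to 40.3) and 15.5 in FH (15 to 15.9).

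The 3 neuronal Elavl genes were higher in FH in every preparation. Elavl2 (ENSMUSG00000008489.10, chr4:90917454-91066675, minus strand) had 0.798, 0.881, 1.01 and 1.25 RPKM in CCE and 7.96, 18.4 and 18.7 in FH, where the sheared preparation was the low one. Its means were 0.985 ± 0.198 (SD, n = 4) and 15 ± 6.13 (SD, n = 3), a 15.3-fold difference, with a log2 fold change of 2.93 (SE 0.285, limma adjusted p = 3.79e-05). In Ribo-Zero libraries Elavl2 stood at 1.88 RPKM in CCE (1.66 to 2.12) and 8.94 in FH (8.57 to 9.32).

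Elavl3 (ENSMUSG00000003410.7, chr9:21819449-21856467, minus strand), a standard pan-neuronal marker, had the largest log2 fold change of the regulators. In CCE it had 0.200, 0.0735, 0.199 and 0 RPKM, which rest on 3, 1, 4 and 0 tags. In FH it had 26.1, 19.9 and 23.2 RPKM, and no regulator had a higher mean there. Means were 0.118 ± 0.0987 (SD, n = 4) and 23.1 ± 3.13 (SD, n = 3), with a log2 fold change of 4.42 on the RPKM + 1 scale (SE 0.168, limma adjusted p = 3.57e-07). The size rests on the pseudocount, as it was 2.45 with 5 and 6.86 with 0.1 in place of 1, and 7.64 with voom. Ribo-Zero libraries held 0.370 RPKM in CCE (0.274 to 0.489) and 17.6 in FH (17 to 18.1), a 47.5-fold difference.

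Elavl4 (ENSMUSG00000028546.11, chr4:109876327-110024514, minus strand), whose product HuD acts in neurite growth, had 0.186, 0.0686, 0.325 and 0.386 RPKM in CCE and 6.19, 12.4 and 11.8 in FH. Means were 0.242 ± 0.142 (SD, n = 4) and 10.1 ± 3.44 (SD, n = 3), a 42-fold difference, with a log2 fold change of 3.12 (SE 0.240, limma adjusted p = 9.25e-06). The Ribo-Zero values were 0.416 RPKM in CCE (0.316 to 0.536) and 10 in FH (9.65 to 10.4). Nova1, Nova2, Elavl2, Elavl3 and Elavl4 were the 5 regulators with every FH preparation above every CCE preparation, as were 20.3% of all genes tested.

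Set against Elavl1, the neuronal members differed by a large factor. Their summed RPKM was 0.0348 to 0.0599 of that of Elavl1 in CCE and 3.86 to 5.04 times that of Elavl1 in FH. The difference was 6.56 on the log2 scale, with the smallest exact permutation p of 0.0571 (adjusted 0.0571). In Ribo-Zero libraries this ratio was 0.0678 in CCE and 2.36 in FH.

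Mbnl1 (ENSMUSG00000027763.7, chr3:60277032-60433670, plus strand) was the regulator without a called difference. It had 7.24, 9.04, 11.6 and 11.3 RPKM in CCE and 8.07, 10.3 and 12.5 in FH, and the groups overlapped. Means were 9.78 ± 2.04 (SD, n = 4) and 10.3 ± 2.22 (SD, n = 3), with a log2 fold change of 0.07 (SE 0.221, limma adjusted p = 0.811). The sign depended on the settings and ranged from -0.16 to 0.59. The upper end came from the Ribo-Zero libraries, with 7.63 RPKM in CCE (7.20 to 8.09) and 12 in FH (11.6 to 12.4).

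Mbnl2 (ENSMUSG00000022139.9, chr14:120674891-120830919, plus strand), which is known for its part in brain splicing, was lower in FH. It had 22.2, 24.9, 35.5 and 34.2 RPKM in CCE and 7.42, 12.9 and 12.5 in FH, with no overlap. Means were 29.2 ± 6.66 (SD, n = 4) and 10.9 ± 3.05 (SD, n = 3), 2.67-fold lower, with a log2 fold change of -1.35 (SE 0.253, limma adjusted p = 0.00193). In Ribo-Zero libraries Mbnl2 stood at 32 RPKM in CCE (31 to 33) and 18.1 in FH (17.5 to 18.7). The ratio of Mbnl2 to Mbnl1 was 2.75 to 3.07 in CCE and 0.920 to 1.25 in FH, a log2 difference of -1.51 (exact permutation p = 0.0571, the smallest possible, adjusted 0.0571). Ribo-Zero gave 4.19 and 1.51.

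**Figure D2:**
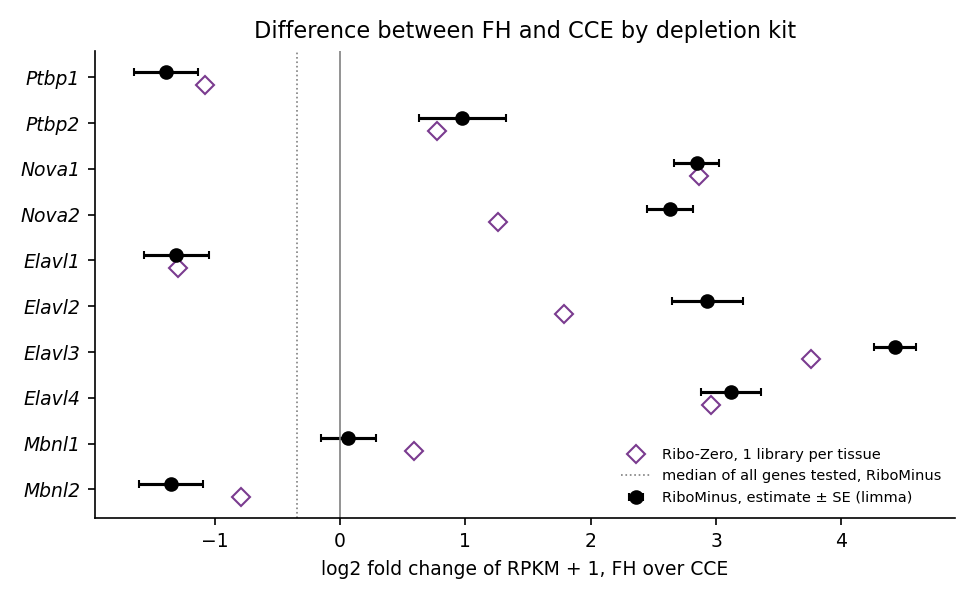
Log2 fold change of RPKM + 1 between FH and CCE for each regulator, with black points and bars for the RiboMinus estimate ± SE and open diamonds for Ribo-Zero with 1 library per tissue. The dotted line is the median of all genes tested, -0.34. The sign is the same in both kits for all 10 regulators, and Nova2 and Elavl2 have the widest gaps, 2.64 against 1.26 and 2.93 against 1.79.

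By RiboMinus level, the order in CCE was Ptbp1, Elavl1, Mbnl2, Mbnl1, Ptbp2, Elavl2, Nova2, Nova1, Elavl4 and Elavl3. Elavl1 and Mbnl2 overlapped in their preparations, as did each neighbouring pair from Nova2 to Elavl3, whereas the steps between Ptbp1, the Elavl1 and Mbnl2 pair, Mbnl1, Ptbp2, Elavl2 and Nova2 showed no overlap of neighbours. In FH the RiboMinus order was Elavl3, Ptbp1, Elavl2, Elavl1, Mbnl2, Mbnl1, Elavl4, Nova1, Nova2 and Ptbp2, and every gene overlapped its neighbour. The range of means thus ran from 0.118 to 45.9 RPKM in CCE and from 7.60 to 23.1 in FH. The order differed in the Ribo-Zero libraries. There it ran in CCE as Elavl1, Mbnl2, Ptbp2, Ptbp1, Mbnl1, Elavl2, Elavl4, Elavl3, Nova1 and Nova2, and in FH as Ptbp2, Mbnl2, Elavl3, Elavl1, Mbnl1, Elavl4, Elavl2, Nova1, Ptbp1 and Nova2, so that Ptbp2, last of the regulators in RiboMinus FH, came first. Ptbp1 was not corrected for sequence that is not unique. In Ribo-Zero it stands next to Ptbp2 in CCE (14.8 and 18.9 RPKM) and next to Nova1 in FH (6.47 and 8.41). Whether these places would turn with a correction is not known, since uniqueness was not counted at the length of Ribo-Zero tags.

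Levels are described here by fragmentation, beside the GC content of the merged exons. In both tissues sheared cDNA gave lower levels than hydrolysed cDNA for 7 regulators, Ptbp2, Nova1, Elavl1, Elavl2, Elavl4, Mbnl1 and Mbnl2, whose merged exons have 38.5% to 43.5% GC. In CCE both sheared preparations lay below both hydrolysed ones for these 7, and in FH the sheared preparation was the lowest. For Ptbp1, Nova2 and Elavl3, with 54.2% to 56.6% GC, the sheared FH preparation was the highest of FH, at 1.40, 1.44 and 1.21 times the hydrolysed mean. In CCE the sheared mean of these genes was 1.36, 0.999 and 1.37 times the hydrolysed one, with a single sheared preparation (CCE2) above the others for Ptbp1, and with few Elavl3 tags. The share of all genes with these orders was not counted, so that nothing particular to the regulators and no tie to GC content is read from them. Sheared cDNA made up 2 of 4 CCE and 1 of 3 FH preparations. With fragmentation as a term, or with hydrolysed preparations only, the calls and directions were the same for all but Mbnl1, which was not called and turned to -0.0064 and -0.0079.

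Levels also differed between the kits. Ribo-Zero gave 5.51 times the RiboMinus mean of Ptbp2 in CCE and 4.35 times in FH, against 0.323 and 0.392 for Ptbp1 and 0.214 and 0.187 for Nova2. Across the 10 genes the GC content and the log2 ratio of the kits had Pearson r = -0.694 and Spearman rho = -0.588 in FH and -0.486 and -0.103 in CCE. These are descriptions, since the 10 points share both libraries of a tissue. The RiboMinus means include sheared cDNA, whereas both Ribo-Zero libraries were hydrolysed, so that these ratios do not compare hydrolysed cDNA alone. For Ptbp2 the sheared mean was 0.462 times the hydrolysed one in CCE and 0.501 times in FH. Read length, depth, sequencing location, sequencer and RNA source also differ between the kits. None of these can be told apart from the depletion.

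**Figure D3:**
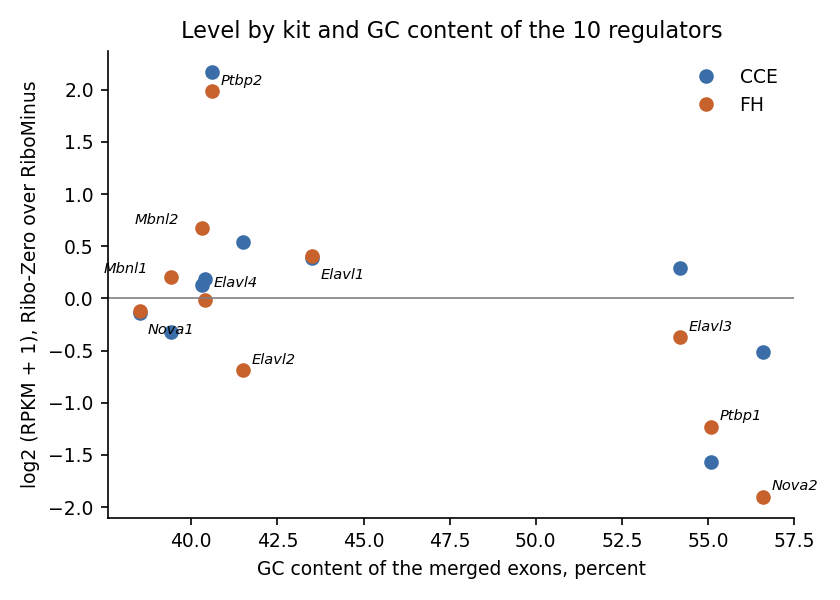
Log2 ratio of RPKM + 1 between Ribo-Zero and RiboMinus against the GC content of the merged exons in percent, with 1 point per regulator in CCE (blue) and FH (orange), named beside the FH point. Ptbp2, at 40.6% GC, lies highest in both tissues, and Ptbp1 and Nova2, at 55.1% and 56.6%, lie below 0 in both. RiboMinus values are means over sheared and hydrolysed cDNA, whereas both Ribo-Zero libraries were hydrolysed.

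Exon use asks whether an exon's share of its gene's tags differs between the tissues. It was tested with voom and diffSplice in limma, with fragmentation as a term, for exons with at least 20 tags in genes expressed over 3 RPKM in both tissues. Only 5 regulators could be tested, since the Nova genes and the neuronal Elavl genes lay below that level in CCE. Of their 38 exons, 1 was called, exon 6 of Elavl1, and 3 had an unadjusted p under 0.05. Of all 61246 exons tested 0.588% were called.

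Exon 6 of Elavl1 (chr8:4284782-4289924, 5143 nt) is its last exon and holds the end of the coding part and the whole 3′ UTR. Its use was higher in FH by 0.94 on the log2 scale (SE 0.212, limma adjusted p = 0.0114), and the Ribo-Zero log2 odds of 0.89 had the same sign. The call was lost without a fragmentation term (adjusted p = 1), at either location alone (0.561 and 0.822) and without CCE1 hydrolysed (0.0528), CCE2 hydrolysed (0.191), FH1 sheared (0.119), FH1 hydrolysed (0.0664) or FH2 hydrolysed (0.472). Its direction was the same in all of these. Exon 2 of Elavl1, of 188 nt, went the other way by -1.31 (SE 0.357, limma adjusted p = 0.0703), and Ribo-Zero gave -0.75.

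In the other genes tested, the exon with the largest change did not pass the threshold. For Mbnl2 it was exon 1 at 0.72 (SE 0.350, limma adjusted p = 0.639) and for Ptbp1 exon 5 at -0.80 (SE 0.474, adjusted p = 0.746), with Ribo-Zero log2 odds of 0.02 and -0.01. Ptbp1 exon 5 is also among the exons where a tag cannot always be placed, since 64.2% of its 36-mers are unique in the genome. For Ptbp2 exon 4 the value was -1.18 (SE 0.593, adjusted p = 0.665) and for Mbnl1 exon 9 it was 0.67 (SE 0.426, adjusted p = 0.78). Both had the opposite sign in Ribo-Zero, 0.26 and -0.90.

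**Figure D4:**
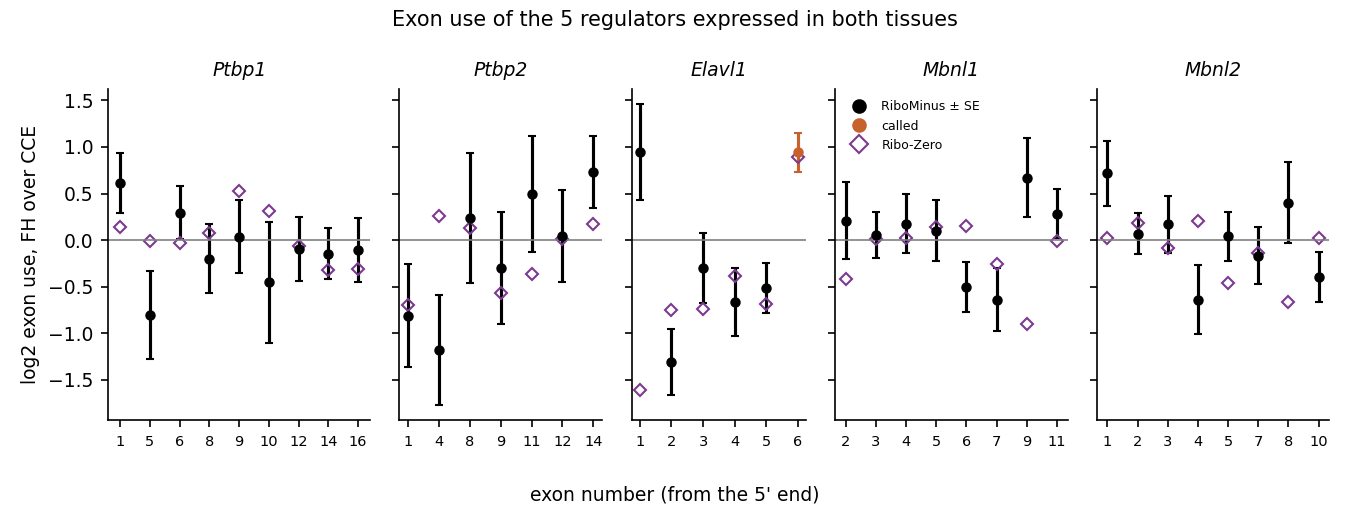
Log2 exon use, FH over CCE, of the 38 tested exons of Ptbp1, Ptbp2, Elavl1, Mbnl1 and Mbnl2, numbered from the 5′ end, with the RiboMinus estimate ± SE as points and the Ribo-Zero log2 odds as open diamonds. Exon 6 of Elavl1 at 0.94 is the one called, and the remaining 37 exons scatter to both sides of 0.

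The change in Elavl1 was resolved further by cutting the last exon. Taken as a piece of its own, which was chosen after its values were seen, the 3′ UTR of 4821 nt had a log2 use of 1.25 in FH against CCE (SE 0.207, limma adjusted p = 7.28e-05), the only one of 50 pieces of the regulators that was called. Of all 72073 pieces 0.537% were called. This call held when any 1 preparation was left out and was lost without the fragmentation term (adjusted p = 0.462) and in the Nijmegen libraries alone (0.21).

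In RPKM, the coding part of Elavl1 (978 nt) had 71.9, 103, 115 and 142 in CCE and 17.3, 31.7 and 26.7 in FH, a 4.27-fold difference of the means. The first 1000 nt of the 3′ UTR had 34.2, 54.0, 48.3 and 48.4 in CCE and 14.8, 15.1 and 18.0 in FH, a 2.89-fold difference. Both regions were lower in all FH preparations. Beyond 1000 nt, over the remaining 3821 nt, the values were 3.33, 4.64, 9.90 and 8.55 in CCE and 4.02, 8.32 and 8.84 in FH. The groups overlapped there, with means of 6.61 ± 3.12 (SD, n = 4) and 7.06 ± 2.65 (SD, n = 3). In Ribo-Zero libraries the folds of CCE over FH were 3.65, 2.78 and 1.36 for the same regions.

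The share of coding and 3′ UTR tags of Elavl1 that lay beyond 1000 nt was 10.9%, 10.3%, 19.1% and 14.9% in CCE preparations. In FH preparations it reached 32.6%, 40.8% and 43.3%, above every CCE value. Ribo-Zero gave 21.2% in CCE (95% Wilson interval 20.2 to 22.3) and 39.3% in FH (37.9 to 40.8). The boundary of 1000 nt was set after the density along the 3′ UTR had been seen. Density was highest between 501 and 1000 nt, at 81.7 RPKM in CCE and 28.8 in FH, and from 1501 to 2000 nt it was 8.12 and 11.1. Lower values near the annotated end, 0.955 and 1.26 RPKM beyond 4500 nt, were found in both tissues.

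**Figure D5:**
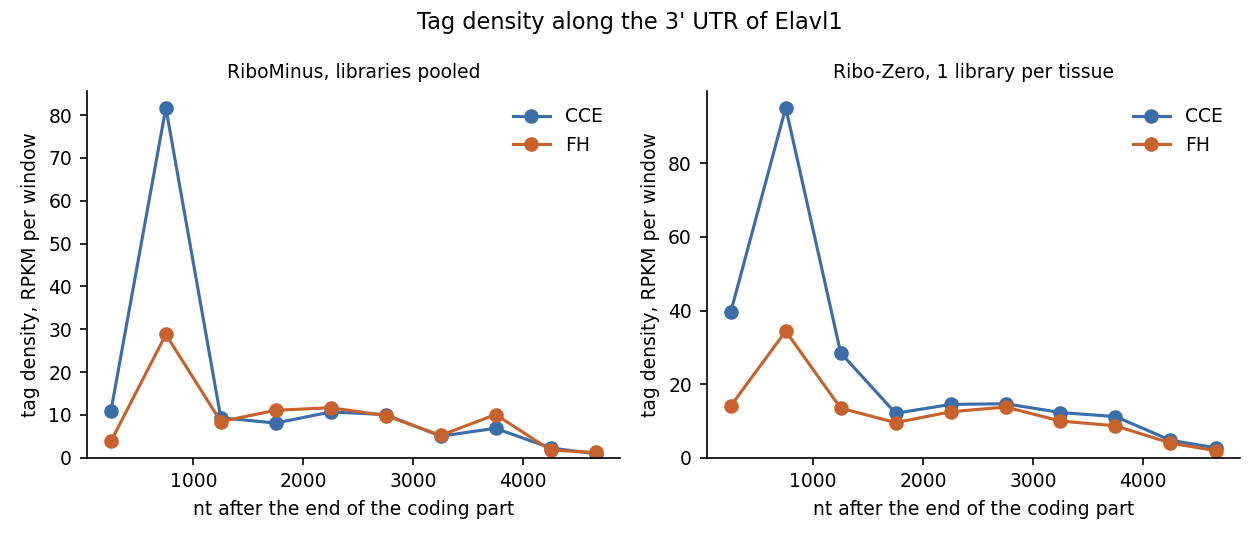
Tag density in RPKM in windows of 500 nt along the 3′ UTR of Elavl1 against the distance in nt from the end of the coding part, in CCE (blue) and FH (orange), for pooled RiboMinus libraries on the left and Ribo-Zero on the right. The density from 501 to 1000 nt is 81.7 in CCE against 28.8 in FH for RiboMinus and 95.1 against 34.4 for Ribo-Zero, whereas from 1501 to 2000 nt it is 8.12 against 11.1 and 12.1 against 9.56.

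Polyadenylation hexamers were searched on the transcript strand of this 3′ UTR. ATTAAA occurred at 277, 1235, 2536 and 4601 nt after the end of the coding part, and AATAAA at 4184, 4216, 4366 and 4800 nt, the last of these 16 nt before the annotated end. Neither word starts between 501 and 1000 nt. Of 73907 windows of 500 nt in annotated 3′ UTRs, 23.9% hold AATAAA and 20.4% ATTAAA. Such matches describe the letters only.

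As a separate measure, the ratio of 3′ UTR to coding tag density was tested per gene. CCE preparations of Elavl1 had ratios of 0.135, 0.145, 0.156 and 0.119, and FH preparations had 0.361, 0.307 and 0.402, without overlap. The log2 difference was 1.39 (SE 0.231), with an unadjusted p of 0.000441, but the limma adjusted p over 6323 genes was 0.133, and 0.127% of all genes passed. With a pseudocount 10 times larger the adjusted p was 0.00498. Ribo-Zero gave ratios of 0.202 and 0.383. Log2 differences of the other 4 regulators tested were 0.13 for Ptbp1, 0.25 for Ptbp2, 0.53 for Mbnl1 and -0.22 for Mbnl2, none of them called.

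Alternative 5′ exons could be looked at in Elavl2 and Elavl4 from tag counts alone, without a test. Only some of the upstream exons of these genes are given, and no rule for choosing them had been set beforehand. Ribo-Zero gave 1 library per tissue and the RiboMinus tags were pooled over preparations, so that the Wilson intervals of both compare these tags and not the tissues. They cover counting error only, and tags at repeated positions, 44.1% and 34.5% of those in the Ribo-Zero libraries of CCE and FH, are counted as separate. The upstream exon 3 of Elavl2 (chr4:91042627-91043154) held 5 of 71 gene tags in CCE (7.04%, Wilson interval 3.05 to 15.4) and 92 of 867 in FH (10.6%, 8.73 to 12.8) in RiboMinus libraries. In Ribo-Zero libraries it held 10 of 264 (3.79%, 2.07 to 6.83) and 355 of 2204 (16.1%, 14.6 to 17.7). Exon 5 (chr4:91038591-91038760) showed the opposite order in Ribo-Zero, 4.55% in CCE (2.62 to 7.78) and 1.18% in FH (0.806 to 1.72). In RiboMinus it held 4 of 71 tags in CCE (5.63%, 2.21 to 13.6) and 1.27% in FH (0.71 to 2.26). These intervals overlap, and no order is read from the RiboMinus tags of exon 5. For Elavl4, exons 5 and 6 held 86 and 81 of 2476 Ribo-Zero tags in FH (3.47% and 3.27%) and 0 of 59 in CCE. A count of 0 allows a share of up to 5.08%, taken as 3 tags of the total (Wilson upper limit 6.11%), so that no difference in these exons was detectable at this depth. Exon 1 held 2 of 59 Ribo-Zero tags in CCE (3.39%, 0.935 to 11.5) and 7 of 2476 in FH (0.283%, 0.137 to 0.582), and 1 of 18 (5.56%, 0.988 to 25.8) and 10 of 587 (1.7%, 0.928 to 3.11) in RiboMinus. Exon 2 held 1 Ribo-Zero tag in CCE and 7 in FH, and 0 and 4 in RiboMinus. With at most 2 CCE tags in exons 1 and 2, no order is read from them. In RiboMinus libraries of FH exons 5 and 6 held 2 and 33 of 587 tags (0.341% and 5.62%), and the share of exon 5 thus differed between the kits.

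The short exons shown above could not answer the question of tissue-specific use. Tags across splice junctions were not mapped, so that an exon near the tag length can hold few tags. Ribo-Zero tags of 51 nt are longer than the 34-nt and 39-nt exons and Mbnl1 exon 8. No Ribo-Zero tag lay wholly within these exons, nor did any RiboMinus tag within the 34-nt exons. Such tags are counted by midpoint and run into the adjoining genome sequence, so that they do not measure inclusion. The 39-nt exons had no tag in CCE in either kit. In FH the RiboMinus libraries held 4 tags in Elavl2, 8 in Elavl3 and 9 in Elavl4, and the Ribo-Zero library 7, 4 and 3. The 34-nt exon of Ptbp1 held 2 tags in either tissue in RiboMinus and 1 and 5 in Ribo-Zero, and that of Ptbp2 held 1 and 1, then 1 and 2. The longer Nova1 exon 4 of 72 nt held 2 and 24 RiboMinus and 1 and 56 Ribo-Zero tags in CCE and FH, beside mean gene levels of 0.426 and 9.24 RPKM. Mbnl1 exon 8 held 2 and 3, then 1 and 6, and Mbnl2 exon 6 held 7 and 3, then 8 and 7.

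Tags in introns, which can come from unspliced RNA, were more frequent per exon tag in FH for 4 of the 5 regulators tested. The log2 difference of the intron to exon ratio was 1.53 for Ptbp1 (SE 0.290, limma adjusted p = 0.00198), 1.31 for Elavl1 (SE 0.199, 0.000772), 1.22 for Mbnl1 (SE 0.216, 0.00148) and 1.16 for Mbnl2 (SE 0.208, 0.0016). This was a general feature, as 61.1% of 6228 genes were called in either direction, 3688 of them higher and 115 lower in FH. The median log2 difference over all genes tested was 0.82. Ptbp2 was not called at 0.39 (SE 0.286, adjusted p = 0.255), and Ribo-Zero gave -0.05. For Elavl1 the intron to exon density ratio was 0.0246 to 0.0378 in CCE and 0.0734 to 0.0867 in FH, and for Mbnl1 it was 0.0222 to 0.0353 and 0.0610 to 0.0895.

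Other tissue-regulated RNA-binding proteins and possible targets were counted in lists. Of 28 tested among 33 other tissue-regulated RNA-binding proteins, 11 rose in FH, 5 fell and 12 were not called, with a median log2 fold change of 0.05, where 19.9% of all genes were higher and 34.8% lower. Of those that rose, all but Msi1 had a mean below 3 RPKM in CCE and passed the filter only through FH. The count of higher genes is thus partly set by the filter. In Ribo-Zero libraries the called genes kept their order except Msi1, with 9.14 RPKM in CCE and 7.64 in FH. On the scale of median ratios 12 of 28 were higher and 3 lower, where 24.6% of all genes were higher and 24.3% lower. On that of protein-coding exon tags the counts were 14 and 3 of 30, beside 28% and 19% of all genes, with the falls of Celf1 (adjusted p = 0.098 and 0.29) and Hnrnpll (0.252 and 0.408) lost on both. The largest rises were those of the CELF family members Celf3 (5.21, SE 0.275, limma adjusted p = 1.28e-06) and Celf4 (3.01, SE 0.319, adjusted p = 6.41e-05) and of Khdrbs2, which encodes SLM1 (3.43, SE 0.184, adjusted p = 1.42e-06). The largest falls were those of Rbm38 (-2.49), the fetal mRNA-binding protein gene Igf2bp1 (-2.23) and Fxr2 (-1.31). These 6 largest changes were called in the same direction on both other scales. Of 18 general SR proteins and hnRNPs tested, 3 fell, Hnrnpm (-0.64), Hnrnpf (-0.59) and Hnrnpl (-0.55), and 15 were not called, with a median of -0.37. These falls were not called on the scale of protein-coding exon tags (-0.33, -0.35 and -0.21, with adjusted p-values of 0.251, 0.223 and 0.406), where 2 of 20 tested were higher and the median was -0.04.

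Among genes with exons known to be controlled by such factors, 5 of 18 tested rose, 6 fell and 7 were not called, with a median of 0.10. The share of all genes was 19.9% higher and 34.8% lower, so that the lower count is near the background. Of the genes that rose, Mapt, Nrcam and Fgfr2 passed the filter only through FH, so that the higher count is partly set by the filter. In Ribo-Zero libraries the called genes kept their order except Insr (10.8 RPKM in CCE and 8.58 in FH) and Fn1 (58.1 and 62.4). The largest rises were those of Mapt (4.02), which encodes tau, Nrcam (2.74), a neuronal adhesion molecule, and Dlg4 (1.44), which encodes the postsynaptic protein PSD-95. The largest falls were those of the actin-binding genes Tpm1 (-3.16) and Actn1 (-2.43) and of Ctnnd1 (-1.56), which encodes a catenin of cell junctions. On the scale of protein-coding exon tags 8 of 20 tested were higher and 4 lower, the 6 named genes among them. Of all genes 28% were higher and 19% lower on this scale, so that the lower count is again near the background.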

How the data were processed

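The authors aligned tags to mm9 with Bowtie (version not given in the sources used here), kept those with 1 place in the genome and deposited each tag as 1 line of a BED file. The score column deposited by the authors holds 1 value per file and was not used, so all values come from counted lines. End minus start of a tag was 35 or 34 in RiboMinus and 51 in Ribo-Zero files. Fragmentation was taken from its own label field, while the protocol text describes hydrolysis for every sample.

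Tags were counted by midpoint in merged GENCODE M1 exons and scaled to all unique tags outside the mitochondrial chromosome. The unit of every test was the RiboMinus cDNA preparation, with the tags of both locations summed. Extra Nijmegen lanes and the combined RiboMinus samples of the series were not used. For genes, ratios and exon use, R 4.3.3 with limma 3.58.1 was used, with a pseudocount of 1 on RPKM, of 1 tag per kb for the 3′ UTR ratio and of 0.1 for the intron ratio, and an adjusted threshold of 0.05. For ratios of paralogues the permutation test was exact and two-sided. The 2 Ribo-Zero libraries have no replicates and were not tested. Tables used Python 3.11.15, pandas 2.3.3, numpy 2.4.6 and scipy 1.17.1, and figures matplotlib 3.10.9.

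On simulated data with 200 features changed 4-fold, 200 were recovered at the gene level with 8 unchanged genes called, 159 with 5 for exon use, 105 with 7 for the 3′ UTR ratio and 168 with 14 for the intron ratio. The simulated counts were independent between preparations, with a fixed dispersion and no effect of fragmentation. The changed features were drawn from those with more tags than the tests require. These counts therefore check the procedure and do not measure its performance on the real data. RiboMinus libraries held 920424 to 2473448 tags each, and exon tests were limited by the filter to genes over 3 RPKM in both tissues. Across 10306 genes, the log2 ratio of preparation 1 to 2 at Vienna-IMP and at Nijmegen had r = 0.447 for sheared CCE, -0.45 for hydrolysed CCE and -0.408 for hydrolysed FH libraries, so that the hydrolysed numbers may be crossed between the locations and a summed hydrolysed preparation may then mix both cDNAs. Labels were kept as given, and the crossed sum was an alternative.

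The members and the gene lists were chosen with earlier results of these data known. All 10 members are named for their levels, and those that could be tested for exons, ratios and introns, with every call and the exon of largest change per tested member. For the 3 other gene lists up to 3 of the largest called changes in each direction are named, and the marker lists are given by counts and sums. The lists were other tissue-regulated RNA-binding proteins, SR proteins and hnRNPs, genes with target exons, and markers of 8 cell types. Alternatives tried were other pseudocounts, filters, scales, tests and exon models, positions counted once, single locations and each preparation left out. Protein sequences were not used here.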

Additional observations from a re-analysis of the deposited data

Results flagged for a closer look

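One value stood apart from its group among 30 groups of preparations or libraries examined, where chance alone would set apart about 1 in 20. Ptbp1 had an RPKM of 69.0 in the sheared preparation CCE2, while the other 3 CCE preparations lay between 37.0 and 39.5, so that the gap was 0.92 of the range of the group. The direction and the call of Ptbp1 were the same without this preparation, as with any other left out, with log2 fold changes from -1.54 to -1.18.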

How the results depend on the processing

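The counts of 6 higher and 3 lower regulators ranged from 5 to 6 and stayed at 3 over 23 alternatives, and 8 of the regulators kept their call and direction under all 23 tested alternatives and their direction in the untested Ribo-Zero libraries. Ptbp2 kept its call in 14 of 23 and lost it in 9. Sizes of low genes moved with the pseudocount or test, from 2.45 to 7.64 for Elavl3, 1.5 to 5.35 for Elavl4, 1.39 to 4.47 for Nova1, 1.32 to 3.85 for Nova2 and 1.69 to 3.83 for Elavl2. Over all genes, 3650 were higher with no filter on low genes, and 3356 were higher and 2271 lower on the scale of protein-coding exon tags. With a replicate block of the title numbers 1 to 6, 2120 genes were higher and 4123 lower and 6 and 3 regulators were called, against 2275, 4356, 6 and 3 in 14 libraries with no replicate block. The numbers mark no shared material, the correlation of their deviations was -0.617 to 0.504, and none of the 6 CCE libraries correlated best with the FH library of its number. Mbnl1, never called, turned to -0.0415 with positions counted once, -0.0064 with fragmentation as a term, -0.0079 with hydrolysed preparations only, -0.0529 at Nijmegen alone and -0.16 with coding parts only, and lay between -0.0701 and 0.217 with 1 preparation left out. For exon use, no exon of the regulators (0) was called without the fragmentation term or at Vienna-IMP or Nijmegen alone, 2 with hydrolysed preparations only, and 0 to 2 with 1 preparation left out. Over all exons 34, 76 and 34 were called in the first 3 of these settings and 110 to 601 with 1 preparation left out. With hydrolysed preparations only, 427 of 51474 exons were called, beside the 2 of 37 tested in the regulators. Elavl1 exon 2 was called with hydrolysed preparations only (adjusted p = 0.0145) and without CCE1 sheared (0.0139) or CCE2 sheared (0.0151). In Ribo-Zero libraries Mbnl1 exon 9 turned to -0.90 and Ptbp2 exon 4 to 0.26. For the 3′ UTR ratio, 0 genes were called without the fragmentation term, with hydrolysed preparations only or at 1 location, 0 to 4 with 1 preparation left out, and 235, of them 1 regulator (Elavl1), with a pseudocount 10 times larger. That ratio turned for Ptbp1 to -0.13 with hydrolysed preparations only, -0.0883 with positions counted once and -0.29 in Ribo-Zero (-0.13 to 0.33 with 1 preparation left out), for Ptbp2 to -0.16 at Nijmegen (-0.15 to 0.96 with 1 left out), for Mbnl1 to -0.0524 in Ribo-Zero, and for Mbnl2 to 0.52 with the larger pseudocount, 0.0727 at Vienna-IMP and 0.19 in Ribo-Zero. The intron ratio was called in 2218 genes at Nijmegen and in 2519 to 3941 with 1 preparation left out, and that of Ptbp2 turned to -0.0492 in Ribo-Zero but was called with hydrolysed preparations only (adjusted p = 0.0433) and without CCE2 sheared (0.0412). The cause of these changes was not tested. Depth limits the neuronal genes in CCE, where Elavl3 had 8 RiboMinus tags in all.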

Other observations

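The coding exons of the Elavl genes show how far the paralogues can be told apart by short tags. Coding exons of 104, 154 and 226 nt occur in each of the 4 genes. In these exons Elavl1 was identical to a neuronal member at 67.3% to 76.6% of their positions, and the neuronal members to one another at 71.2% to 82.7%, with no identical run longer than 23 nt. All 36-mers of these exons were unique in the genome. Ptbp1 differed in this respect, since 5.26% of the 36-mers in its exon 4, 64.2% in exon 5, 62.1% in exon 14 and 65.8% in exon 16 of 1627 nt were unique. Exons 7, 8 and 12 stood at 72.4%, 83.6% and 81%. Exon 14 held 26.5% of the RiboMinus tags of Ptbp1 in CCE. Part of the Ptbp1 exons thus cannot hold uniquely placed tags of 36 nt in either tissue, and its level and the ratio of Ptbp2 to Ptbp1 rest on the remainder. For the longer Ribo-Zero tags this part was not counted.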
